A study of Mus musculus with 16 samples.

Results

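Imiquimod cream was compared with a vehicle control on the ears of wild-type mice, gene by gene, with 4 arrays in each group. Both groups were C57BL/6J mice aged 8 to 11 weeks. The imiquimod (IMQ) group received 31.25 mg of Aldara cream, which holds 5% IMQ, on the right ear each day for 3 days, and whole ear flaps were collected on day 4. The control group received a vehicle of unstated composition. These 8 samples are among 16 of the series. The other 8 are ears of miR-146a-/- mice of the same strain background, 4 with vehicle and 4 with IMQ. They enter below through the choice of the transcript cluster that stands for a gene and through a common estimate of the spread. They also enter alternative fits, and where a difference between the genotypes was tested. Nothing in the labels states that each sample came from its own mouse, and the p-values therefore reflect variation among these arrays only, which may be technical. Values are given in the order of arrays 1 to 4 of each group, on the log2 scale of the deposited table, where a difference of 1 is a doubling of signal. All 30943 genes with a symbol were tested with limma, and a gene was called, and is said to have risen or fallen, where its adjusted p was under 0.05.

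Imiquimod is a ligand of Toll-like receptor 7, which signals through MyD88 to NF-kB and interferon regulatory factors, and in mice repeated cream produces a psoriasis-like dermatitis. In that dermatitis interleukin-23 from dendritic cells and macrophages drives T cells to make interleukin-17, which acts on keratinocytes, and these release neutrophil-attracting chemokines and antimicrobial proteins and alter their programme of cornification. An ear flap holds epidermis, hair follicles, sebaceous glands, dermis, vessels, nerve, cartilage, fat and striated muscle. A change in the signal of a gene in such bulk tissue can come from more or fewer cells of a type or from more or less RNA per cell, and the arrays cannot tell these apart.

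Marker genes of epidermis and striated muscle read far above the array medians. Krt14, a keratin of basal epidermis, read 11.44 or more and Krt10, of the layers above, 12.03 or more on all 8 arrays, and Acta1, the actin of striated muscle, read 9.68 to 10.56. The melanocyte marker Tyr (2.15 to 2.93) lay below the array medians of 3.21 to 3.26. Arrays of one group correlated across transcript clusters with a mean r of 0.972 for vehicle and 0.974 for IMQ, and arrays of different groups with a mean r of 0.967. Vehicle array 3 stood apart in leukocyte and muscle genes. It was the highest of the 4 vehicle arrays for 22 of 32 neutrophil genes and 21 of 38 macrophage genes, and the lowest for 30 of 35 skeletal muscle genes, while over all genes it was the highest for 7614 and the lowest for 7731 of 30943. Vehicle array 4 was the lowest for 17 of the 32 neutrophil genes. Vehicle array 1 was the highest for 21 of 32 cornified envelope genes, 22 of 31 barrier lipid genes and 15 of 18 kallikrein genes, and for 7757 of all genes. Vehicle array 2 was the highest for 30 of the 35 muscle genes. Several results that rest on vehicle array 3 or 4 are given below with and without it.

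Imiquimod changed 1126 genes, 3.64% of those tested. A total of 603 rose (1.95%) and 523 fell (1.69%). Each count of list members below is to be read beside these shares. The lists were chosen with earlier results of these data known, so a count above the shares is a description and not a test. Of the called genes 269 changed at least 2-fold, 185 upward and 84 downward, and 15 rose and 6 fell at least 4-fold. The rises led in size: Cxcl13, a B cell chemokine, rose 33.4-fold, while the largest fall was 6.15-fold, in Mt4, the metallothionein of cornifying epithelia. The median change over all genes was -0.02. The count of rises was 384 without vehicle array 4. The share of rises among the calls was 53.6%, and 64.7% (770 rises, 420 falls) when each array was centred on its median.

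**Figure D1:**
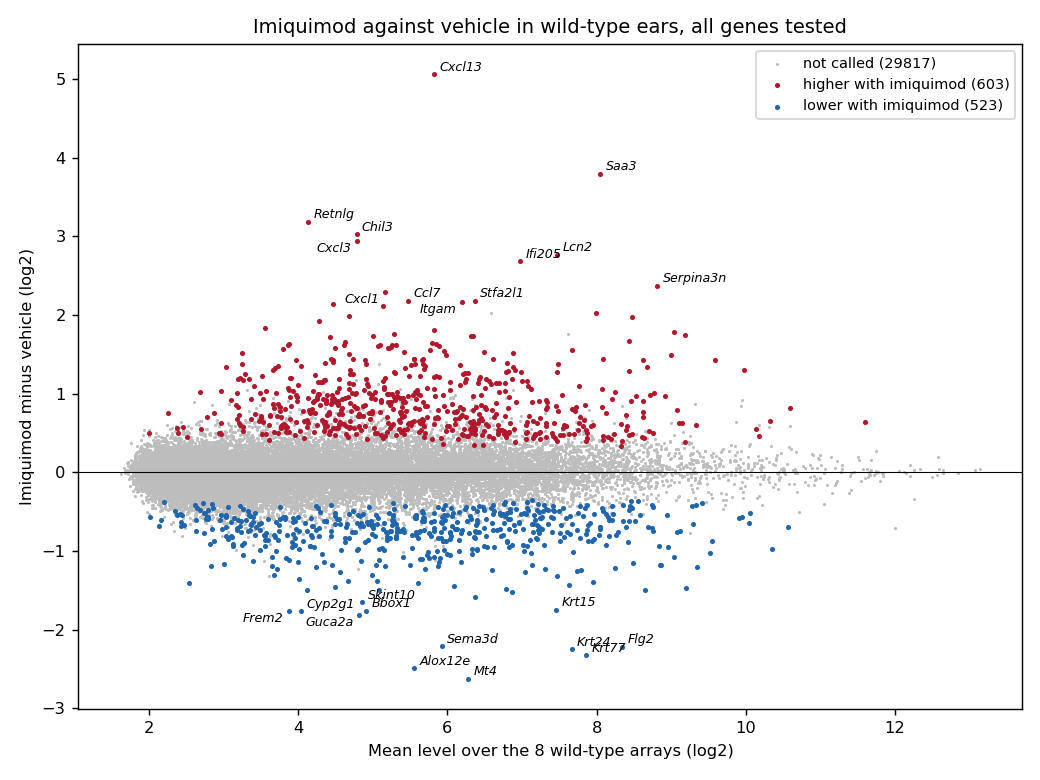
Change with IMQ in wild-type ears (log2, IMQ minus vehicle, vertical axis) against the mean level over the 8 wild-type arrays (log2, horizontal axis) for all genes tested. Red points are the 603 genes that rose, blue points the 523 that fell, grey points were not called, and the 12 largest rises and falls carry their symbols. Cxcl13 stands highest at 5.06 and Mt4 lowest at -2.62.

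The 12 largest rises, under the rule by which genes were named, were Cxcl13, Saa3, Retnlg, Chil3, Cxcl3, Lcn2, Ifi205, Serpina3n, Cxcl1, Stfa2l1, Ccl7 and Itgam. Only called genes whose groups did not overlap could enter this ranking or that of the falls, so their lack of overlap is no separate result. Cxcl13 read 2.86, 3.31, 3.32 and 3.64 with vehicle and 7.82, 8.91, 8.16 and 8.49 with IMQ. The vehicle arrays lay near the array medians and the IMQ arrays at least 4.18 above every one of them. The change was 5.06 ± 0.30 (SE, limma adjusted p = 3.46e-08). Saa3, an acute-phase serum amyloid made locally in inflamed tissue, read 5.23, 6.13, 6.50 and 6.75 with vehicle and 9.79, 10.06, 10.25 and 9.68 with IMQ. It rose 13.9-fold, and the groups did not overlap (change 3.79 ± 0.40, adjusted p = 2.65e-05). Retnlg, a resistin-like protein of neutrophils, read 2.52, 2.64, 3.07 and 1.94 with vehicle and 5.57, 4.96, 6.15 and 6.22 with IMQ, a change of 3.18 ± 0.24. Chil3, the chitinase-like protein Ym1 of macrophages and neutrophils, read 3.52, 2.82, 3.38 and 3.35 with vehicle and 6.41, 6.80, 6.00 and 5.96 with IMQ, a change of 3.02 ± 0.21. For Cxcl13, Retnlg and Chil3 the vehicle signal was at or below the array medians or close above them, whether it was above background is not known, and the fold compares array signals only.

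Lcn2, the iron-sequestering lipocalin of neutrophils and stressed epithelium, read 6.12, 6.35, 6.36 and 5.51 with vehicle and 8.67, 8.93, 8.64 and 9.17 with IMQ. The groups lay 2.28 apart at their nearest, and the gene rose 6.81-fold (2.77 ± 0.28, adjusted p = 1.55e-05). Ifi205, a DNA-sensing protein of the Ifi200 family, read 5.02, 6.28, 5.78 and 5.44 with vehicle and 7.90, 8.41, 8.48 and 8.47 with IMQ, a 6.43-fold rise. Serpina3n, an acute-phase inhibitor of serine proteases, rose 5.17-fold, from 7.34 to 8.00 with vehicle to 9.73 to 10.28 with IMQ. Itgam, the CD11b chain of the integrin of neutrophils and monocytes, read 4.88, 5.02, 5.61 and 4.93 with vehicle and 7.26, 7.40, 7.39 and 7.04 with IMQ. Vehicle array 3 was the highest of its group, and all IMQ arrays lay at least 1.43 above it. Itgam rose 4.48-fold (2.16 ± 0.21, adjusted p = 1.05e-05).

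The 12 largest falls began with Mt4, which read 7.77, 7.49, 7.52 and 7.57 with vehicle and 5.50, 5.05, 4.22 and 5.10 with IMQ. The vehicle arrays lay within 0.28 of each other, and IMQ array 3 was the lowest of all (change -2.62 ± 0.23, adjusted p = 2.26e-06). Alox12e, an epidermal lipoxygenase, read 6.73, 6.65, 6.95 and 6.86 with vehicle and 4.74, 4.34, 3.99 and 4.16 with IMQ, a 5.62-fold fall. Sema3d, a secreted semaphorin, read 6.77, 7.06, 7.14 and 7.13 with vehicle and 4.79, 5.08, 4.88 and 4.51 with IMQ, a 4.63-fold fall. Guca2a, the peptide guanylin, read 6.57, 5.16, 5.41 and 5.73 with vehicle and 3.83, 4.10, 3.86 and 3.81 with IMQ, a 3.53-fold fall. In all 4 the groups were separate on every array, as the ranking rule required. Cyp2g1, a cytochrome P450, fell 3.40-fold and Bbox1, the last enzyme of carnitine synthesis, 3.38-fold.

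**Figure D2:**
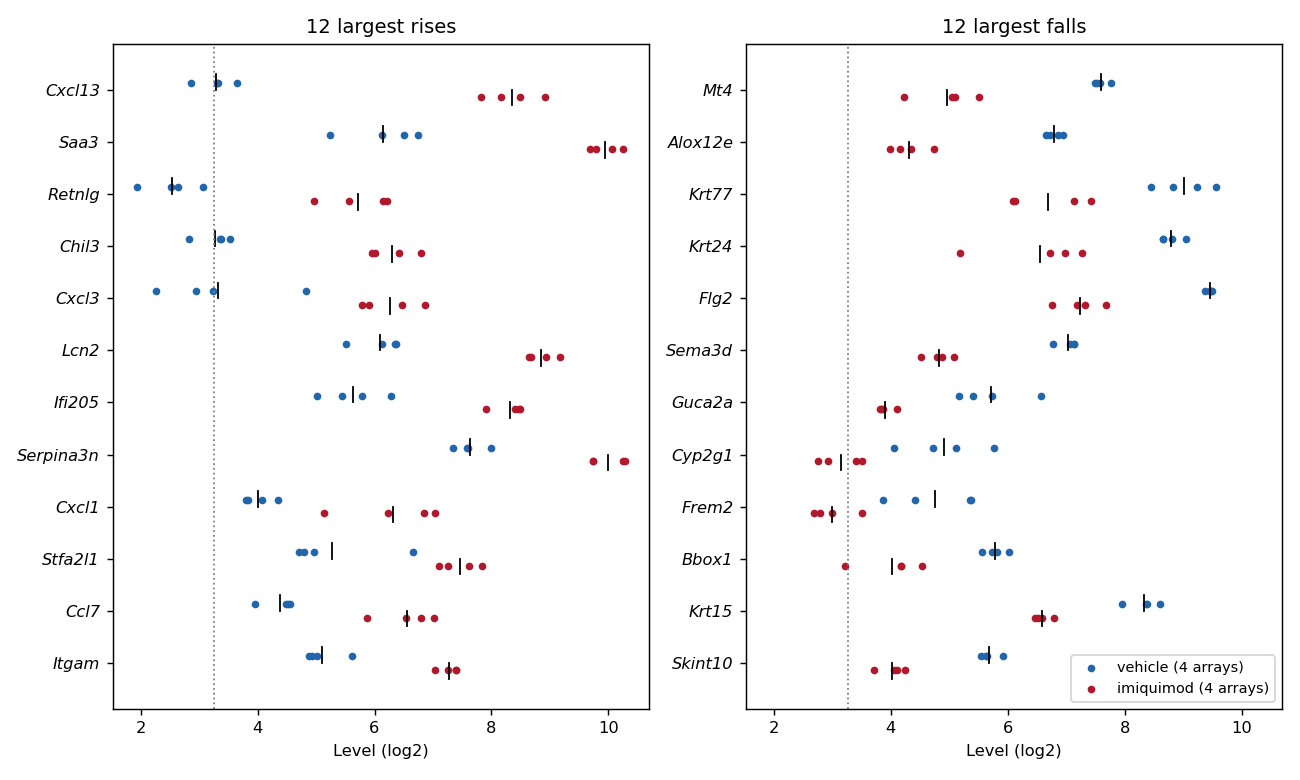
Level (log2) of the 12 largest rises (left) and the 12 largest falls (right) on each of the 4 vehicle arrays (blue) and 4 IMQ arrays (red). Black ticks are group means and the dotted line is the highest wild-type array median, 3.26. In each of the 24 genes all 4 arrays of one group lie above all 4 of the other, which is part of the rule by which they were ranked.

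Of 12 neutrophil chemoattractants, their receptors and colony-stimulating factors 5 rose and none fell, and their median change was 0.54. The 5 were the chemokines Cxcl1 and Cxcl3, the receptors Cxcr2 and Csf3r, and Csf1, a growth factor of macrophages. Over all genes 1.95% rose. The ligand Cxcl1 read 3.83, 4.35, 4.07 and 3.81 with vehicle and 6.85, 6.23, 5.13 and 7.04 with IMQ. IMQ array 3 was the lowest treated array and still 0.78 above the highest control (2.30 ± 0.33, adjusted p = 0.000476). Its paralogue Cxcl3 read 3.23, 2.95, 4.82 and 2.26 with vehicle and 6.47, 5.78, 6.87 and 5.91 with IMQ. Vehicle array 3 was the highest control, and the groups did not overlap (2.94 ± 0.40, adjusted p = 0.000285). Csf3r, the receptor for the granulocyte growth factor G-CSF, rose 3.08-fold, while its ligand Csf3 (0.10) was not called. Cxcr2, the receptor for Cxcl1 and Cxcl3, rose 1.74-fold (0.80 ± 0.20, adjusted p = 0.0338), but lost its call without vehicle array 1, 2 or 4 or IMQ array 1, 3 or 4 (adjusted p up to 0.128). Csf1 (0.63) lost its call in 7 of the 8 fits with 1 array left out, all but that without IMQ array 3. The count of rises was 3 without vehicle array 1, 2 or 4 or IMQ array 1 or 4.

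The promoters of Cxcl1 and Cxcl3 are shown because these neighbouring ligands of one receptor rose together. Each line is the 250 bases before the gene start from the RefSeq table of build GRCm38.p6, 5′ to 3′ on the gene's strand: Cxcl1 at chr5:90890995-90891244, plus strand, and Cxcl3 at chr5:90785851-90786100, plus strand. Capitals mark runs that match a form of the kappaB motif bound by NF-kB, GGGA and TTCC with 2 free bases between them, searched on both strands, with overlapping matches joined.
Cxcl1: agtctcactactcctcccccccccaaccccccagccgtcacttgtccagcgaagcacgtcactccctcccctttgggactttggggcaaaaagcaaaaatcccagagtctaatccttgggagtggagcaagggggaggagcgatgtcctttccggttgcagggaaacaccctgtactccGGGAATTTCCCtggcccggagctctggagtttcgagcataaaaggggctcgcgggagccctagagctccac
Cxcl3: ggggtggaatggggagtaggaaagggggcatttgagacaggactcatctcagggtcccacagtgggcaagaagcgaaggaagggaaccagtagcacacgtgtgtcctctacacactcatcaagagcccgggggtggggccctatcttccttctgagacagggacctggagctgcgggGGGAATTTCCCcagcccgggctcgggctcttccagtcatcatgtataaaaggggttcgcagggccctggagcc
Both hold the same letters, GGGAATTTCCC, at 71 to 61 bases before the gene start in Cxcl1 and 73 to 63 in Cxcl3. The motif was present in 1.30% of the 17442 genes tested that had a promoter window. It was in 2.98% of genes that rose (12 of 403) and in 1.12% of genes that fell (4 of 356). Among genes that rose at least 2-fold the share was 2.54% (3 of 118). Windows of the risen chemokines Cxcl13, Ccl20, Ccl19, Cxcl12, Ccl6 and Ccl9 held no match, while that of the receptor Csf3r held a match. A match describes letters and is not a measured binding site.

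Among 15 monocyte and granulocyte CC chemokines and receptors 6 rose and none fell, with a median change of 0.84. Ccl7, a monocyte chemoattractant, read 4.56, 4.48, 4.52 and 3.95 with vehicle and 7.02, 6.54, 5.87 and 6.80 with IMQ, a 4.53-fold rise. Ccl2, the principal ligand of the monocyte receptor CCR2, read 3.29, 3.92, 3.82 and 3.83 with vehicle and 5.76, 5.68, 4.04 and 5.17 with IMQ. On IMQ array 3 it was only 0.12 above the highest control, and the rise was 2.73-fold (adjusted p = 0.0043). Ccl6 (2.24-fold), Ccl9 (2.20-fold) and Ccl12 (change 1.01) also rose, and the receptor Ccr2 did not pass the test (-0.07). Ccl3, the neutrophil and macrophage chemokine MIP-1alpha, read 5.75, 5.46, 7.95 and 3.12 with vehicle and 7.59, 7.36, 8.01 and 7.42 with IMQ. The 4 treated arrays lay within 0.65 of each other while the controls spanned 4.83, with vehicle array 3 inside the treated range. The change of 2.02 ± 0.63 was not called (adjusted p = 0.0944). Without vehicle array 3 it was 2.82 (adjusted p = 0.00266), and without vehicle array 4 it was 1.21 (adjusted p = 0.254).

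Of 28 chemokines and receptors of lymphocytes and dendritic cells 5 rose, with a median of 0.04. Ccl20, the ligand of CCR6 on interleukin-17-producing T cells and dendritic cells, read 5.60, 5.47, 5.56 and 5.17 with vehicle and 7.56, 7.17, 6.74 and 7.25 with IMQ, a 3.32-fold rise without overlap (1.73 ± 0.16, adjusted p = 8.37e-06). Ccl19, a ligand of CCR7, rose 2.91-fold, and its other transcript clusters on the array changed by 1.40 to 1.75. Cxcl12 rose 2.19-fold, with the call kept only without vehicle array 2 or IMQ array 3 (adjusted p up to 0.115). The interferon-gamma-induced ligands Cxcl9 (-0.07 ± 0.12) and Cxcl10 (-0.07 ± 0.14) were not called. The receptor of Cxcl13, Cxcr5 (0.12), and that of Ccl20, Ccr6 (-0.13), were not called either. The count was 3 without IMQ array 1, 2 or 4 or vehicle array 3 or 4.

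The promoter of Cxcl13 (chr5:95956689-95956938, plus strand) is printed with those of 3 other genes among the largest rises, Saa3 (chr7:46715677-46715926, minus strand), Retnlg (chr16:48872358-48872607, plus strand) and Lcn2 (chr2:32387740-32387989, minus strand), because all 4 hold a match to TTGCNNAA, a form of the motif of C/EBP factors, which act in myeloid cells and in the acute-phase response. These are again the 250 bases before the gene start from RefSeq, build GRCm38.p6, with matches on either strand in capitals.
Cxcl13: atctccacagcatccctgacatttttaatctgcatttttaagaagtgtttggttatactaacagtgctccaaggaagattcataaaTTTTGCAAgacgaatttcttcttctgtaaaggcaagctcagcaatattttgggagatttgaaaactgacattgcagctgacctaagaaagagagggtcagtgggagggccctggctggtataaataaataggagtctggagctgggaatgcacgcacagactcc
Saa3: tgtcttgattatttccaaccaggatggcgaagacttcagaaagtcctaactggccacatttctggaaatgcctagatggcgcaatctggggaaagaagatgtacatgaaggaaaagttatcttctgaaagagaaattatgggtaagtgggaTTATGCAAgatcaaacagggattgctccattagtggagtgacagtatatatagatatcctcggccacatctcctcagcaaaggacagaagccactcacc
Retnlg: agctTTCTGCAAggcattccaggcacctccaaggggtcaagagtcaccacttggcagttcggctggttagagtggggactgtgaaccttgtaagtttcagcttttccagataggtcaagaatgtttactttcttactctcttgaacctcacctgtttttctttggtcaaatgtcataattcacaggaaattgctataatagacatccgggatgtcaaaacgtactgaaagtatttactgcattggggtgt
Lcn2: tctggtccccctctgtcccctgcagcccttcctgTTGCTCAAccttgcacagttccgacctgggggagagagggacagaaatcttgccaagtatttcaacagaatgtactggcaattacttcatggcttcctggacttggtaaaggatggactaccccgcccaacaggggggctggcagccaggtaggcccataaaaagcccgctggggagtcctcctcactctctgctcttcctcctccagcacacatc
The motif was in 10.3% of all 17442 genes with a window, in 14.1% of genes that rose and 12.6% of genes that fell. It was in 21.2% of genes that rose at least 2-fold (25 of 118) and in 21.8% of genes that fell at least 2-fold (12 of 55). The genes shown were picked for holding it.

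Of 22 genes of the interleukin-23 and interleukin-17 axis 1 rose and 2 fell (median 0.11). Il17f, an interleukin-17 of T cells, read 3.69, 4.51, 4.30 and 3.54 with vehicle and 4.54, 4.24, 4.76 and 5.51 with IMQ. The groups overlapped, and the change of 0.75 ± 0.36 had an adjusted p of 0.354. Il17a changed by 0.04 ± 0.18, Il22 by 0.12 ± 0.11, Il23a by 0.10 ± 0.16 and Il12b, which encodes the subunit shared by interleukins 12 and 23, by 0.20 ± 0.15. All 4 read 3.69 or less on all 8 arrays, close to or below the array medians, and whether they were above background is not known. The 2 falls were in receptors: Il12rb2, a chain of the interleukin-12 receptor, read 6.28, 5.86, 6.46 and 5.74 with vehicle and 4.94, 5.30, 4.76 and 4.63 with IMQ, a 2.26-fold fall, and Il22ra1, the interleukin-22 receptor chain of keratinocytes, fell 1.71-fold. Zc3h12a, an RNase that degrades cytokine messengers, rose 1.76-fold and lost its call without vehicle array 4 or IMQ array 4 (adjusted p up to 0.0688).

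Il1b, the gene of interleukin-1beta, varied widely between the vehicle arrays. Il1b read 6.51, 7.27, 8.54 and 4.64 with vehicle and 8.48, 7.87, 9.32 and 8.35 with IMQ. Vehicle array 3 was above 3 of the treated arrays and vehicle array 4 lay 3.90 below it, and the change of 1.76 ± 0.73 was not called (adjusted p = 0.252). It was 2.37 without vehicle array 3 (adjusted p = 0.0995) and 1.07 without vehicle array 4. Among 22 genes of the interleukin-1 family 4 rose and 2 fell (median 0.23). Il1a read 6.54, 5.87, 6.23 and 5.68 with vehicle and 6.86, 7.09, 6.79 and 6.92 with IMQ, a 1.78-fold rise, and the receptor Il1r1 rose 1.89-fold. Il18, an inflammasome-processed cytokine of keratinocytes, fell 1.92-fold from 7.47 to 7.67 with vehicle to 6.43 to 6.72 with IMQ, whereas Il18rap, a chain of its receptor, rose 2.04-fold. The interleukin-36 ligands Il1f6 (now Il36a, 0.12 ± 0.17) and Il1f9 (now Il36g, 0.29 ± 0.13) were well expressed, between 8.42 and 9.28 on all 8 arrays, and were not called. Casp1 (0.69) and Il1f5 (now Il36rn, the interleukin-36 receptor antagonist, -0.41) were called, and lost their calls with 1 array left out, Casp1 with any and Il1f5 with any but IMQ array 1.

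Il19, a keratinocyte and macrophage cytokine of the interleukin-20 group, read 3.01, 3.35, 3.96 and 2.96 with vehicle and 5.49, 4.98, 4.88 and 5.61 with IMQ. It rose 3.78-fold without overlap (1.92 ± 0.31, adjusted p = 0.00112), while both chains of its receptor fell, Il20ra 1.83-fold and Il20rb by 0.82 on the log2 scale. Osmr, the oncostatin M receptor, rose 1.86-fold and Socs3, the feedback inhibitor of STAT3, 1.93-fold. Il6 read 2.15 to 2.34 with vehicle and 2.30 to 3.11 with IMQ (0.59 ± 0.20, adjusted p = 0.137). Of the 22 genes of this family 3 rose and 2 fell, with a median of 0.27.

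Tnf read 4.10, 3.96, 4.91 and 3.86 with vehicle and 5.39, 5.12, 5.17 and 5.20 with IMQ. Vehicle array 3 came within 0.21 of the treated arrays, and the 2.02-fold rise was called (adjusted p = 0.033) but lost its call with any array other than vehicle array 3 left out (adjusted p 0.00657 to 0.116). Its receptor Tnfrsf1b rose 1.93-fold. Of 26 Toll-like receptors, co-receptors and adaptors 2 rose and none fell (median 0.21), but only 1 rose without vehicle array 2 or 4 or any 1 of the IMQ arrays. Irak3 (a kinase-like inhibitor of this signalling) lost its call in 7 of the 8 fits with 1 array left out. The imiquimod receptor Tlr7 (0.20 ± 0.12) and the adaptor Myd88 (0.38 ± 0.14, adjusted p = 0.17) were not called. Tlr8 changed by 0.60 ± 0.18 (adjusted p = 0.068, 0.0386 at the lowest with 1 array left out). Tlr13, a mouse sensor of bacterial ribosomal RNA, read 2.86, 2.37, 2.56 and 2.70 with vehicle and 4.02, 4.05, 3.75 and 3.46 with IMQ, a 2.29-fold rise. Irak1 (-0.04 ± 0.14) and Traf6 (-0.05 ± 0.10), signal transducers below these receptors and reported targets of miR-146a, were not called, and Mir146, the array's symbol for the gene of that microRNA, read between 1.62 and 2.16 on all 8 arrays.

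Of 31 NF-kB subunits, inhibitors and feedback genes 3 rose and 2 fell, where 1.95% of all genes rose and 1.69% fell. Of the rises 2 kept their calls in every fit with 1 array left out. No fall was left without vehicle array 1, 3 or 4 or IMQ array 3 or 4, and 1 was left without IMQ array 1 or 2. Tnfaip2, a TNF-induced gene, read 5.39, 5.23, 5.26 and 4.97 with vehicle and 6.32, 6.47, 6.31 and 6.59 with IMQ, a 2.31-fold rise (1.21 ± 0.12, adjusted p = 1.7e-05). Nfkbiz, the nuclear IkB-zeta needed for interleukin-17 target genes, rose by 0.58 on the log2 scale. The subunits Rela (0.14), Nfkb1 (0.35) and Nfkb2 (0.30) were not called.

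Of 48 interferons and interferon-stimulated genes 4 rose and none fell, where 1.95% of all genes rose, and the median was 0.13. Isg15 (-0.01 ± 0.20) and Mx1 (-0.16 ± 0.14), which type I interferon induces strongly, were not called, nor were Ifnb1 (-0.01 ± 0.11) and Ifng (0.14 ± 0.14). The rises were in the receptor chain Ifngr1 (1.54-fold, 7.36 to 7.51 with vehicle and 7.94 to 8.20 with IMQ) and in Ifi27l2a, Iigp1 and Ifnar2, whose calls were lost in 5, 6 and 7 of the 8 fits with 1 array left out. The count was 1 without IMQ array 2 or vehicle array 1, 3 or 4. These counts cover the listed genes only. Outside the list, and picked after their values were seen, Oas1f (-1.32) and Gbp10 (1.03) were called in opposite directions. In the Schlafen and Ifi200 families 5 of 14 genes rose (median 0.48). Besides Ifi205, Slfn2, a Schlafen protein of myeloid cells and lymphocytes, rose 2.73-fold, from 4.63 to 5.19 with vehicle to 6.23 to 6.58 with IMQ. Mnda rose 2.72-fold and Ifi204 2.61-fold, each on all 4 arrays above all controls.

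Of 32 neutrophil granule and surface genes 13 rose and 1 fell, the median was 0.42, and in 13 all IMQ arrays lay above all vehicle arrays, against 5.52% of all genes. Mmp8, neutrophil collagenase, read 2.76, 2.51, 2.54 and 2.73 with vehicle and 4.21, 4.05, 4.92 and 4.71 with IMQ, a 3.57-fold rise. S100a8, a chain of calprotectin in neutrophils and stressed keratinocytes, read 8.00, 8.29, 8.35 and 7.91 with vehicle and 9.78, 9.75, 10.17 and 10.01 with IMQ. The groups were 1.40 apart at their nearest, yet the SE from all 16 arrays was 0.40 and the adjusted p of the 3.46-fold rise 0.013. Its partner S100a9 rose 2.70-fold. Stfa2l1, a stefin of mouse neutrophils, read 4.96, 4.79, 6.65 and 4.70 with vehicle and 7.26, 7.11, 7.84 and 7.62 with IMQ, so that vehicle array 3 came within 0.46 of the treated arrays (4.54-fold). The formyl peptide receptors Fpr1 (1.57) and Fpr2 (1.43) rose. Other granule genes of the list were not called: Mpo (-0.15), Elane (-0.04), Camp (0.02), Ngp (0.15) and Ltf (0.21). Ly6g, the gene of the antigen by which mouse neutrophils are often stained, read 2.68 to 2.94 with vehicle and 2.59 to 3.46 with IMQ (0.18 ± 0.17, not called). The 1 fall was Asprv1 (-0.56), a protease gene of granular keratinocytes that neutrophils also express, and it did not hold in every fit with 1 array left out. The mean level of the 32 genes was 4.08 to 4.76 on the vehicle arrays and 5.04 to 5.24 on the IMQ arrays. Without vehicle array 3 the count of rises was 15, and 10 kept their calls in each of the 8 fits with 1 array left out.

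Of 38 monocyte and macrophage genes 12 rose and none fell, with a median of 0.61. With 1 array left out the count of rises was 9 to 12, and 8 of the 12 kept their calls in every such fit. Emr1 (now Adgre1, a surface antigen of mouse macrophages) read 3.45, 4.09, 3.42 and 4.24 with vehicle and 5.33, 5.79, 5.71 and 4.87 with IMQ, a 3.08-fold rise. Msr1, the class A scavenger receptor, rose 2.55-fold from 3.14 to 3.52 to 4.54 to 4.95. Ly6c2 (1.07), which marks inflammatory monocytes, and Plac8 (1.33) rose, as did the Fc receptor gamma chain Fcer1g (1.19) and its relative Tyrobp (1.06). Csf1r, the receptor of macrophage growth factor, read 5.43 to 5.86 with vehicle and 5.73 to 6.34 with IMQ and was not called (0.32 ± 0.17). Cd14 read 4.16, 4.34, 5.82 and 3.23 with vehicle and 5.73, 5.23, 6.47 and 5.62 with IMQ. Vehicle array 3 was above 3 treated arrays, and the change of 1.38 ± 0.40 was not called (adjusted p = 0.0684, or 0.00295 without vehicle array 3). The mean level of the 38 genes was 4.35 to 4.68 with vehicle and 4.98 to 5.32 with IMQ. Of 18 chitinase-like and macrophage polarisation genes 4 rose and 1 fell. Retnla, the resistin-like RELM-alpha of alternatively activated mouse macrophages, read 3.39, 3.89, 2.61 and 3.08 with vehicle and 1.62, 2.01, 1.78 and 1.93 with IMQ. It fell 2.65-fold (adjusted p = 0.00189) while its family member Retnlg rose, and Arg1 (0.82) and Mrc1 (0.48) were not called. Retnla read below the array medians on vehicle arrays 3 and 4 and on all IMQ arrays. Whether its signal was above background is not known. Lyve1, of lymphatic endothelium and perivascular macrophages, rose 2.38-fold.

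Of 25 complement components, receptors and inhibitors 9 rose and none fell, with a median of 0.51. The 9 include Itgam, a leukocyte integrin chain that forms a complement receptor. C3, the central component, read 7.31, 7.71, 7.55 and 7.81 with vehicle and 8.96, 9.38, 9.40 and 9.33 with IMQ, a 3.19-fold rise. Cfb, which forms the alternative pathway convertase with C3, read 4.92, 4.98, 4.81 and 5.16 with vehicle and 6.72, 6.73, 6.66 and 6.36 with IMQ, a 3.14-fold rise with an SE of 0.14 (adjusted p = 2.26e-06). C3ar1, the receptor of the C3a fragment, rose 2.69-fold. An inhibitor rose with the components: Serping1, the C1 inhibitor, changed by 1.37. The terminal components C6 (-0.20), C7 (0.02) and Hc, which encodes C5 (0.01), were not called.

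Among 31 antimicrobial and acute-phase genes 12 rose and none fell (median 0.68), and 10 kept their calls in each of the 8 fits with 1 array left out. Besides Saa3, Lcn2, Serpina3n and the S100 pair, haptoglobin (Hp) rose by 1.75 and the leukocyte protease inhibitor Slpi by 1.31. Defb4, a beta-defensin of keratinocytes, read 6.62, 6.72, 5.74 and 5.76 with vehicle and 7.51, 7.72, 7.92 and 7.07 with IMQ, a 2.54-fold rise (1.34 ± 0.25, adjusted p = 0.00325). The serum amyloids Saa1 (0.74) and Saa2 (0.29) were not called. Of 21 serpin B and cystatin-type inhibitors 2 rose and 1 fell. Neither rise, Serpinb3a or Stfa1, held in every fit with 1 array left out, and none was left without vehicle array 2 or 4 or any 1 of the IMQ arrays. The fall was Serpinb8 (1.66-fold, 7.54 to 7.62 with vehicle and 6.68 to 6.99 with IMQ).

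Of 20 mast cell and basophil genes 5 rose and none fell (median 0.40), and all 5 kept their calls in every fit with 1 array left out. Hdc, which makes histamine in mast cells, basophils and neutrophils, read 4.77, 4.92, 6.50 and 4.15 with vehicle and 6.71, 6.51, 6.95 and 6.60 with IMQ, so that vehicle array 3 came within 0.01 of the lowest treated array (1.61 ± 0.32). The tryptase gene Tpsb2 read 3.53, 3.63, 3.69 and 4.21 with vehicle and 4.71, 5.25, 4.91 and 4.88 with IMQ, a 2.25-fold rise. Chymase Cma1 rose 1.91-fold and Fcer1a, the IgE receptor chain, 1.68-fold from a level near the lower end of the scale (1.86 to 1.91 with vehicle). Cpa3 (1.05) and Mcpt4 (0.91) were not called.

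Of 34 genes of T cells, natural killer cells and the epidermal gamma-delta T cells of mouse skin 5 fell and 1 rose, with a median of -0.10, and the 6 calls held in every fit with 1 array left out. The falls were Tcrg-V5, Cd3g and the keratinocyte genes Skint1, Skint4 and Skint9. Tcrg-V5 (now Trgv5, the receptor segment of these dendritic epidermal T cells) read 3.56, 3.51, 3.69 and 3.56 with vehicle and 2.32, 2.85, 2.58 and 2.91 with IMQ, below the array medians on all treated arrays. It fell by 0.92 on the log2 scale (adjusted p = 0.00886). Cd3g, the gamma chain of the T cell receptor complex, fell by 0.68, while Cd3e (-0.18 ± 0.27) and Cd3d (-0.06) were not called. Skint1, the keratinocyte gene on which the thymic selection of these cells depends, read 7.26, 7.10, 7.16 and 7.38 with vehicle and 5.99, 6.25, 6.08 and 5.61 with IMQ, a 2.37-fold fall (-1.24 ± 0.14, adjusted p = 3.78e-05). Skint10, among the 12 largest falls, read 5.65, 5.54, 5.62 and 5.91 with vehicle and 4.24, 4.05, 4.11 and 3.71 with IMQ, a 3.14-fold fall. The whole Skint family, counted after these values were seen, had 11 members on the array, of which 8 fell and none rose (median -0.99). Skint genes are near-identical relatives, so their probes may share signal. The 1 rise was Fyb (2.56-fold), an adaptor protein of T cells that myeloid cells also express.

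No gene was called among 28 Langerhans cell, dendritic cell and MHC class II genes (median -0.02). Cd207, the langerin of Langerhans cells, read 4.16 to 4.50 with vehicle and 3.79 to 4.26 with IMQ (-0.19 ± 0.18). Cd74 (-0.44) and H2-Ab1 (-0.40) lay lower on average and did not pass the test. Of 16 B and plasma cell genes 1 rose, Xbp1, a factor of secretory cells in general (1.38-fold), which lost its call in 6 of the 8 fits with 1 array left out and kept it without vehicle array 2 or IMQ array 4.

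Of 29 endothelial adhesion and identity genes 10 rose and none fell (median 0.43). Selp, the P-selectin on which leukocytes roll, read 4.00, 3.72, 4.23 and 4.55 with vehicle and 6.33, 6.07, 4.97 and 6.09 with IMQ. IMQ array 3 stood 1.10 below the next treated array and 0.42 above the highest control (3.34-fold, adjusted p = 0.000972). Icam1, to which beta-2 integrins bind, rose 2-fold. The pan-endothelial gene Pecam1 read 5.61 to 5.78 with vehicle and 6.20 to 6.64 with IMQ (0.77 ± 0.13), while Cdh5 (0.47 ± 0.16), Kdr (0.30) and Vcam1 (-0.17) were not called. The count was 6 without vehicle array 3 or 4.

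Of 38 metalloproteinases, their inhibitors and wound-matrix genes 13 rose and none fell (median 0.47). The count was 6 or 7 without IMQ array 1 or 2 or vehicle array 1, 2 or 4, and the 6 that held in every such fit included Mmp8, Mmp19 (0.99), the inhibitor Timp4 and Plaur. Plaur, the urokinase receptor, read 4.30, 4.85, 5.65 and 3.79 with vehicle and 6.18, 5.72, 6.54 and 6.25 with IMQ, a 2.88-fold rise whose groups lay 0.07 apart. Timp4 rose 2.20-fold, from 3.81 to 4.51 with vehicle to 5.02 to 5.53 with IMQ. Of 29 collagen chains 7 fell and 2 rose (median -0.23), where 1.69% of all genes fell and 1.95% rose. Col1a1, the alpha-1 chain of collagen I, read 9.23, 9.15, 9.40 and 9.41 with vehicle and 8.76, 8.15, 8.46 and 8.10 with IMQ, a 1.91-fold fall (-0.93 ± 0.14, adjusted p = 0.000675). Its partner Col1a2 (-0.46) and Col3a1 (-0.34) were not called. The rise of Col4a2 among the collagens lost its call in 7 of the 8 fits with 1 array left out, all but that without vehicle array 2. Col8a1, a short-chain collagen of vessels and wounds, fell 2.40-fold, from 7.47 to 7.87 to 6.27 to 6.61. The basement membrane chain Col4a1 rose 1.96-fold, and Nid1, nidogen of the basement membrane, 1.85-fold.

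Eln, the elastin gene, read 7.67, 7.73, 7.54 and 7.93 with vehicle and 7.08, 6.47, 6.27 and 6.36 with IMQ. IMQ array 1 was the highest treated array, and all lay below the controls (2.25-fold fall, adjusted p = 0.00037). Pdgfra, the growth factor receptor of dermal fibroblasts, moved the other way, from 6.40 to 6.68 up to 7.36 to 7.92 (2.14-fold). Of the 32 dermal fibroblast genes 3 rose and 1 fell (median 0.16), and the rise of Pdgfra and the fall of Eln held in every fit with 1 array left out. Among 23 ear cartilage genes 2 fell, Col2a1 (1.82-fold, 4.13 to 5.14 with vehicle and 3.42 to 3.85 with IMQ) and Chad, whose call was lost without vehicle array 2, 3 or 4 or IMQ array 1. Of 22 adipocyte genes 2 rose, among them the fatty acid binding protein Fabp4, which read 8.27, 8.45, 7.92 and 8.41 with vehicle and 8.88, 9.76, 9.12 and 9.35 with IMQ (2.02-fold, adjusted p = 0.0095). The mean level of the 22 adipocyte genes was 5.78 to 6.29 with vehicle and 6.17 to 6.79 with IMQ, and was highest on array 2 of both groups. The part of fat content in the rise of Fabp4 was not tested.

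Of 18 keratins of resting epidermis 5 fell and none rose (median -0.28). Krt77, a suprabasal keratin of mouse skin, read 8.83, 9.24, 8.45 and 9.56 with vehicle and 6.13, 7.43, 7.13 and 6.09 with IMQ, a 5.01-fold fall (-2.33 ± 0.36, adjusted p = 0.000792). Krt24 read 8.81, 8.66, 9.04 and 8.65 with vehicle and 6.98, 7.27, 5.19 and 6.73 with IMQ. IMQ array 3 was 1.54 below the next lowest, and the fall was 4.75-fold (adjusted p = 0.00439). Krt15, a keratin of basal cells and hair follicle stem cells, read 7.96, 8.38, 8.37 and 8.61 with vehicle and 6.79, 6.58, 6.51 and 6.46 with IMQ, a 3.35-fold fall (-1.75 ± 0.14, adjusted p = 9.03e-07). Krt78 fell 2.13-fold. Krt14 (0.04 ± 0.10), Krt5 (0.01 ± 0.10) and Krt1 (-0.11 ± 0.12) were not called, and Krt10 read 12.34 to 12.50 with vehicle and 12.03 to 12.22 with IMQ (-0.34 ± 0.10, adjusted p = 0.0614).

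Of 32 genes of the filaggrin family and the cornified envelope precursors 12 fell and none rose, where 1.69% of all genes fell. The median was -0.26, and in 17 all IMQ arrays lay below all vehicle arrays, against 5.17% of all genes. Of the 12 falls 8 kept their calls in every fit with 1 array left out. Flg2, filaggrin 2, read 9.48, 9.49, 9.38 and 9.46 with vehicle and 7.32, 7.68, 7.18 and 6.75 with IMQ. The controls lay within 0.11 of each other, and the fall was 4.66-fold (-2.22 ± 0.22, adjusted p = 1.18e-05). Lor, loricrin, the main protein of the cornified envelope, read 10.89, 10.87, 10.72 and 10.89 with vehicle and 9.73, 9.92, 10.02 and 9.83 with IMQ, a 1.96-fold fall (-0.97 ± 0.13, adjusted p = 0.000201). Calm5, a calmodulin-like gene of mouse epidermis, fell 2.70-fold. Flg, filaggrin, read 9.46 to 9.78 with vehicle and 8.18 to 8.81 with IMQ, a 2.10-fold fall, but lost its call with any array other than IMQ array 3 left out (adjusted p 0.036 to 0.105). Ivl, involucrin, an earlier envelope protein, was not called (0.40 ± 0.26), nor were the crosslinking enzymes Tgm1 (0.14) and Tgm3 (0.32).

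Of 14 late cornified envelope genes of group 1, 11 fell and none rose, and their median was -1.01, against -0.02 for all genes. Lce1c read 10.03, 9.92, 9.82 and 9.98 with vehicle and 8.40, 8.77, 8.57 and 8.16 with IMQ, a 2.76-fold fall (-1.46 ± 0.16, adjusted p = 2.65e-05). Lce1m fell 2.79-fold and Lce1f 2.62-fold. The group 3 genes, whose human counterparts are induced in wounded and psoriatic skin, had changes from 0.36 (Lce3c) to 1.15 (Lce3f) in the 6 members, of which Lce3a alone was called (5.75, 5.03, 5.07 and 4.55 with vehicle, 6.42, 5.83, 6.42 and 5.74 with IMQ), and its call was lost without vehicle array 2, 3 or 4 or IMQ array 1 or 3. Lce6a fell 1.85-fold. Members of these families are similar in sequence, and probes may share signal.

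Small proline-rich proteins, envelope crossbridges induced by barrier stress, had the highest median of the 53 lists (0.95). Of 14 genes 7 rose, all of the Sprr2 group, and none fell. Sprr2j-ps, annotated as a pseudogene of that group, read 4.43, 4.17, 4.85 and 4.15 with vehicle and 5.89, 6.34, 6.41 and 6.01 with IMQ (3.39-fold). Sprr2i (1.34), Sprr2f (1.19) and Sprr2g (1.12) rose as well and kept their calls in every fit with 1 array left out. Sprr2d, Sprr2e and Sprr2b rose 2.69-fold to 2.95-fold and each lost its call without vehicle array 4 and IMQ array 3 among others, which left 4 of the 7. Of 18 wound and hyperproliferation genes 4 rose (median 0.58). The 4 include Lcn2, which is also counted among the antimicrobial and the glucocorticoid-responsive genes. The gap-junction gene Gjb2, which encodes connexin 26, read 8.32, 7.83, 8.52 and 7.37 with vehicle and 9.26, 9.37, 9.47 and 9.28 with IMQ, a 2.52-fold rise (adjusted p = 0.00794). The wound keratin Krt6a was abundant in both groups, at 10.07, 9.64, 10.41 and 9.98 with vehicle and 10.64, 10.49, 10.80 and 10.48 with IMQ. The groups did not overlap, but by only 0.07, and the change of 0.58 ± 0.55 was not called (adjusted p = 0.725). Krt16 (0.18 ± 0.33) and Krt17 (0.87) were not called. The count of rises among the 18 stress genes was 2 without IMQ array 2 or 3 or vehicle array 2 or 4.

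**Figure D3:**
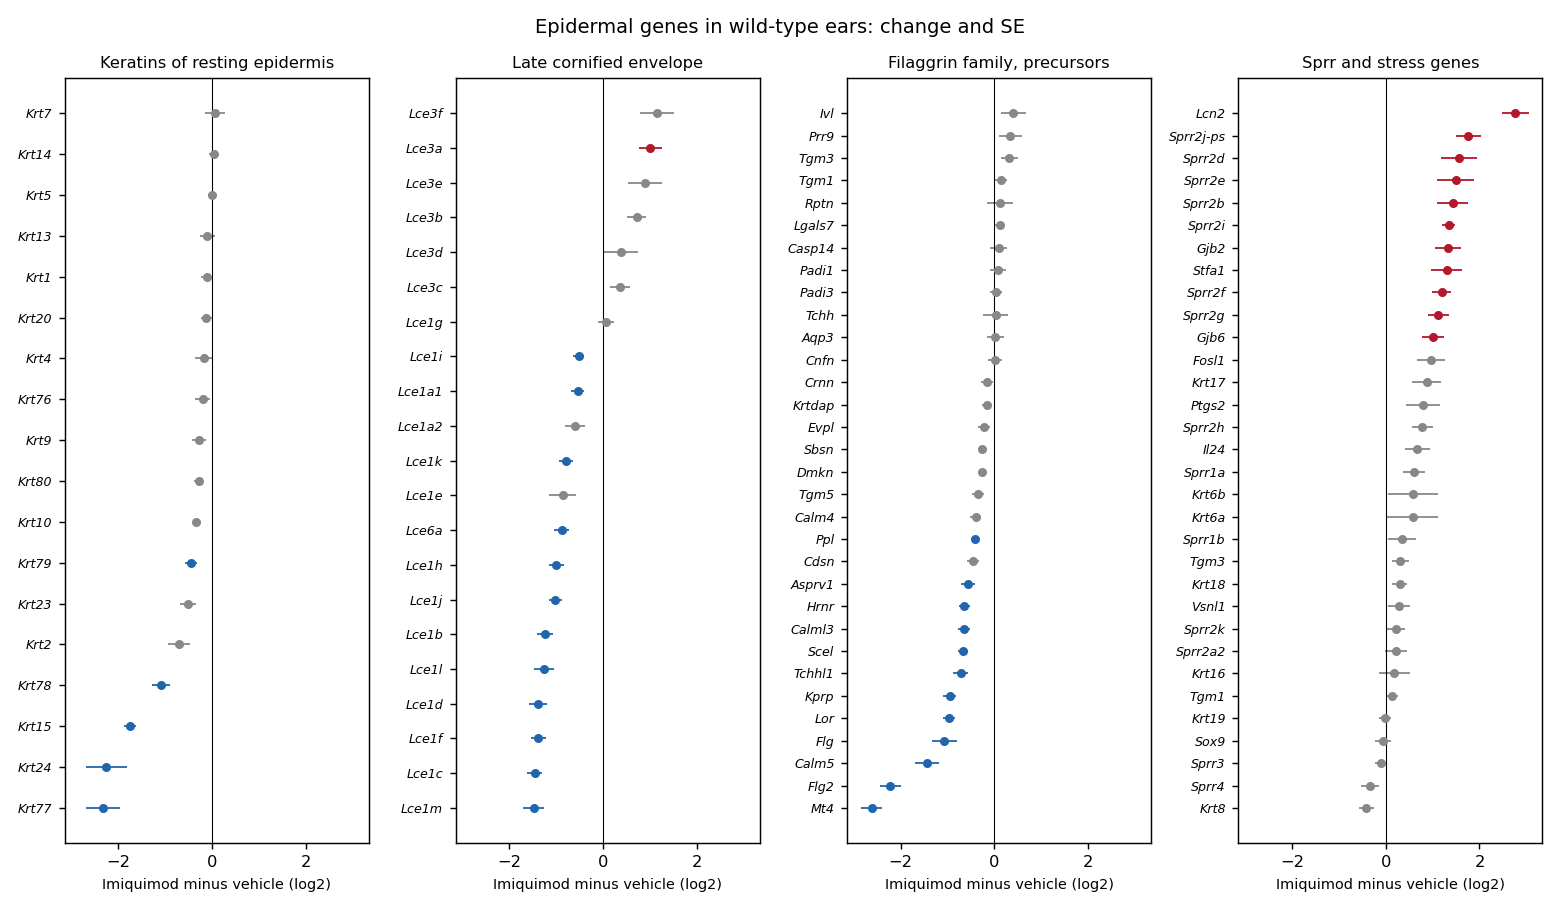
Change with IMQ in wild-type ears (log2, horizontal axis) with its SE (bars) for keratins of resting epidermis, late cornified envelope genes, the filaggrin family with envelope precursors, and small proline-rich and stress genes. Red marks genes that rose, blue genes that fell and grey genes not called. Lce1 genes lie to the left down to -1.48 for Lce1m, and Sprr2 genes to the right up to 1.76 for Sprr2j-ps.

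Lipid enzymes of the barrier fell in part. Of 31 lipoxygenases and barrier lipid genes 6 fell and 2 rose (median -0.10), and the 6 falls and 1 rise held in each fit with 1 array left out. Beside Alox12e, Aloxe3, which acts on the lipids that bind the cornified envelope, read 8.33, 8.06, 8.10 and 8.30 with vehicle and 7.53, 7.41, 7.38 and 7.12 with IMQ (1.79-fold). Its partner enzyme Alox12b (-0.20) was not called. Pla2g2f, an epidermal phospholipase, fell 1.89-fold and Elovl6, an elongase, 1.74-fold, while Degs2, which makes phytoceramides, rose 1.90-fold. Of 37 sterol and fatty acid synthesis genes 1 rose and 2 fell (median 0.15), where 1.95% of all genes rose and 1.69% fell. Of these calls the fall of Elovl6 alone held in every fit with 1 array left out.

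Proteases and junctions shifted by member. Of 18 kallikreins and matriptase-type proteases Klk14 rose 2.26-fold, from 2.35 to 2.94 with vehicle to 3.73 to 4.16 with IMQ, and Prss8, a channel-activating protease of epithelia, fell 1.69-fold. Klk5 fell 1.62-fold and lost its call without vehicle array 1 or IMQ array 4 (adjusted p up to 0.0673). Of 26 junction genes 5 rose and 5 fell. Connexins split: besides Gjb2, Gja1 (0.80) rose, whereas Gjb5 (-0.97) fell. Desmosomal cadherins split as well, with Dsc2 read at 4.18, 4.02, 4.36 and 3.69 with vehicle and 5.36, 5.17, 5.99 and 4.72 with IMQ (2.37-fold higher), Dsg3 higher by 0.90 and Dsg1a lower by 0.88 on the log2 scale. Dsc2 and Dsg3 are known from the lower epidermal layers and Dsg1a from the upper ones.

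Basal adhesion genes were led by Frem2, a basement membrane protein, which read 3.86, 4.42, 5.37 and 5.35 with vehicle and 2.99, 3.51, 2.68 and 2.79 with IMQ, a 3.38-fold fall. Col7a1, the anchoring fibril collagen, fell 1.58-fold, and the integrins Itga6 (-0.05) and Itgb4 (0.29) were not called. Of 44 hair follicle genes 4 fell (2 without IMQ array 4) and none rose (median -0.11), where 1.69% of all genes fell. The falls were led by the transcription factor Dlx3 (6.44, 5.88, 6.02 and 5.45 with vehicle, 4.85, 4.98, 4.94 and 4.71 with IMQ, 2.11-fold). A total of 28 of the 44 lay below the highest array median in both groups. Of 23 sebaceous genes 4 fell, of which Acsbg1 (1.54-fold) alone held in every fit with 1 array left out.

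Of 20 genes of the EGF receptor family, its ligands and related growth factors 4 rose and 1 fell (median 0.10). Epgn, epigen, read 5.61, 5.56, 6.16 and 4.57 with vehicle and 7.31, 7.23, 6.68 and 7.64 with IMQ, a 3.34-fold rise (1.74 ± 0.27, adjusted p = 0.000786). Areg, amphiregulin, read 4.62, 4.16, 5.08 and 3.90 with vehicle and 6.10, 5.43, 5.90 and 6.72 with IMQ, a 3.03-fold rise. Nrg1, a ligand of ERBB3 and ERBB4, rose 2.55-fold in the transcript cluster used, while its other cluster changed by 0.06. Hbegf rose 2.10-fold and lost its call without vehicle array 2 or 4 or IMQ array 1 or 4. The receptors Egfr (0.16), Erbb2 (-0.12) and Erbb3 (-0.32) and the ligands Tgfa (0.71), Btc (0.14) and Ereg (-0.23) were not called. Fgfr2, the receptor of keratinocyte growth factor, fell by 0.60. No gene was called among 52 genes of S phase and mitosis (median 0.02), and Mki67, the proliferation antigen, read 8.26 to 8.43 with vehicle and 7.66 to 8.19 with IMQ (-0.36 ± 0.16, adjusted p = 0.29).

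Of 35 prostaglandin and leukotriene genes 4 rose and 2 fell (median 0.15). Pla2g7, which degrades platelet-activating factor, read 3.77, 3.68, 3.95 and 3.74 with vehicle and 4.65, 4.97, 4.76 and 4.74 with IMQ (1.99-fold), and Alox5ap, the partner of 5-lipoxygenase in leukocytes, rose 2.18-fold. Ptgs1, the constitutive cyclooxygenase, fell by 0.86 on the log2 scale. Ptgs2, the inducible one, read 6.06, 5.66, 7.13 and 4.79 with vehicle and 6.78, 6.16, 7.37 and 6.50 with IMQ. Array 3 was the highest of both groups, and the change of 0.79 ± 0.37 was not called (adjusted p = 0.327, or 0.0486 without vehicle array 3). Of 28 metallothionein and antioxidant genes 7 rose and 1, Mt4, fell. Slc7a11, the cystine transporter, rose 2.87-fold, from 5.44 to 6.53 up to 7.40 to 7.82, and Gpx3, a secreted glutathione peroxidase, 2.61-fold. Mt1 read 7.73, 7.88, 7.97 and 7.38 with vehicle and 8.65, 8.69, 8.56 and 9.17 with IMQ, a 2.04-fold rise.

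Of 23 clock and clock-output genes 6 fell and 4 rose, and the median was -0.22. The clock-output factor Dbp read 6.78, 7.32, 6.22 and 6.70 with vehicle and 5.66, 6.13, 5.31 and 5.37 with IMQ, a 2.20-fold fall (-1.14 ± 0.20, adjusted p = 0.00232). Its relatives Hlf (-0.72) and Tef (-0.61), which bind the same D-box motif, fell too, though Hlf lost its call without IMQ array 3 and Tef without vehicle array 2. Nr1d1, the repressor REV-ERBalpha, read 7.58, 7.72, 7.58 and 7.63 with vehicle and 6.51, 7.19, 6.58 and 6.86 with IMQ, a 1.79-fold fall. Nfil3, which represses D-box genes, rose 1.70-fold, from 4.80 to 5.12 up to 5.63 to 6.01. Per3 read 5.60, 6.13, 5.76 and 5.98 with vehicle and 5.35, 5.34, 5.27 and 5.17 with IMQ (-0.58 ± 0.12), whereas Per2 read 4.02, 3.80, 4.23 and 4.05 with vehicle and 4.87, 4.56, 4.48 and 4.69 with IMQ (0.62 ± 0.13). Per1 (0.61 ± 0.15) rose as Per2 did, and its call and that of Bhlhe40 (0.66) were lost without vehicle array 1 or 4 or IMQ array 1 or 4, and that of Per1 also without IMQ array 3. The activators Clock (-0.13) and Arntl (-0.47) were not called. The hour at which ears were taken is not stated in the labels.

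The promoter of Per3 (chr4:151044666-151044915, minus strand) is shown because it holds 2 matches to the D-box motif TTANGTAA, searched on both strands, to which Dbp, Hlf and Tef bind as activators and Nfil3 as a repressor. It is the 250 bases before the gene start from RefSeq, build GRCm38.p6, with the matches in capitals.
Per3: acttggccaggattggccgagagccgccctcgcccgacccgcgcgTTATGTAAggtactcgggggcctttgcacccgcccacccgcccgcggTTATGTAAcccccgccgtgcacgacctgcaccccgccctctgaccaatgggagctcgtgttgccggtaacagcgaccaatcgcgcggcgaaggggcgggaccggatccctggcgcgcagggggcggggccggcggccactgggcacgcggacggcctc
The matches lie 205 to 198 and 158 to 151 bases before the gene start. The motif was present in 2.24% of all genes with a window, in 1.49% of genes that rose and in 1.69% of genes that fell. It was thus no more frequent among called genes than among all.

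Of 23 genes known to respond to glucocorticoids 11 rose and none fell, the median was 0.54, and in 11 all IMQ arrays lay above all vehicle arrays, against 5.52% of all genes. Fkbp5, a chaperone partner of the glucocorticoid receptor, read 4.65, 4.29, 4.2 and 4.62 with vehicle and 5.80, 5.80, 6.48 and 6.18 with IMQ, a 3.08-fold rise (1.62 ± 0.21, adjusted p = 0.000198). Zbtb16, the transcription factor PLZF, read 4.07, 4.71, 4.43 and 4.51 with vehicle and 5.43, 5.58, 6.65 and 6.37 with IMQ, a 2.98-fold rise. Tsc22d3, the leucine zipper protein GILZ, read 4.34, 4.31, 3.88 and 4.19 with vehicle and 4.77, 4.99, 5.01 and 5.21 with IMQ (0.82 ± 0.14, adjusted p = 0.00184). Angptl4 rose 2.64-fold and Ddit4 by 0.87. Lcn2, Mt1, Mt2 and Per1, which are also in the list, respond to inflammatory signals as well. The receptor gene Nr3c1 (-0.27), Dusp1 (0.13) and Sgk1 (0.09) were not called. The list held 8 rises in each of the 8 fits with 1 array left out.

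Serpina3n (chr12:104406458-104406707, plus strand) and Mt1 (chr8:94178839-94179088, plus strand) are shown because both rose and both hold, in the 250 bases before the gene start (RefSeq, build GRCm38.p6), a match to a form of the glucocorticoid response element, GNACA and TGTNC with 3 free bases between them, which reads alike on both strands. Capitals mark the match.
Serpina3n: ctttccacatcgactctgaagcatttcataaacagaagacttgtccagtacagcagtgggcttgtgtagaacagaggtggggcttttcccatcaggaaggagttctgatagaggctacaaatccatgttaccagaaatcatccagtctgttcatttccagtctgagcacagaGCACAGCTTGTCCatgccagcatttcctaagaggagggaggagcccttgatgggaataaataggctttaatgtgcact
Mt1: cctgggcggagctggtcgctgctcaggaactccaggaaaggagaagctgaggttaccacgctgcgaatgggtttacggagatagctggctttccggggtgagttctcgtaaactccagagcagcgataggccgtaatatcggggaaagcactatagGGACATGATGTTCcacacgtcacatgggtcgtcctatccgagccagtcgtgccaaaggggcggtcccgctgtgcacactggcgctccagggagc
The motif was in 0.436% of all genes with a window. It was in 1.24% of genes that rose (5 of 403) and in 0.281% of genes that fell (1 of 356). The share among rises rests on only 5 genes, and the 2 promoters were picked for holding the motif. In all 7 motifs were searched. The others were TGANTCA of AP-1, GAAA repeated after 2 free bases, of interferon response elements, and the E-box CACGTG. The AP-1 motif was in 7.41% of all genes with a window, 8.93% of genes that rose and 9.27% of genes that fell. Among changes of at least 2-fold it was in 14.4% of rises and 12.7% of falls. The interferon element was in 3.42% of all, 5.96% of rises and 1.4% of falls, and the E-box in 7.67%, 8.68% and 9.27%.

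**Figure D4:**
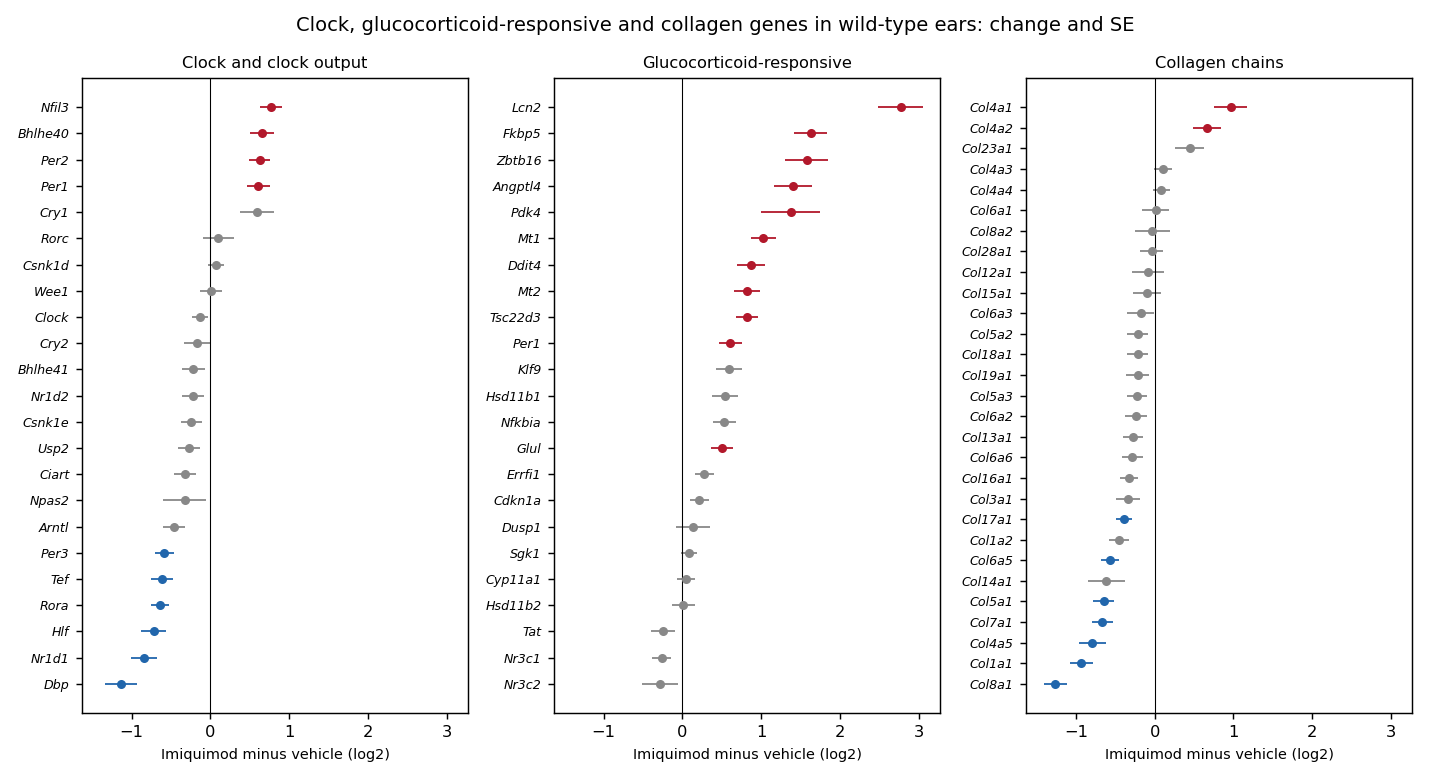
Change with IMQ in wild-type ears (log2, horizontal axis) with its SE (bars) for clock and clock-output genes, glucocorticoid-responsive genes and collagen chains. Red marks genes that rose, blue genes that fell and grey genes not called. Dbp lies lowest of the clock genes at -1.14 and Nfil3 highest at 0.77, and no glucocorticoid-responsive gene fell.

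Several compartments of the ear gave no call. None of 35 skeletal muscle genes (median 0.07), 18 Schwann cell and nerve genes (0.01), 13 melanocyte genes (-0.05) or 9 red cell genes (-0.07) passed the test. The mean level of the muscle genes varied as much within the groups, from 6.63 to 7.42 on the vehicle arrays and from 6.62 to 7.24 on the IMQ arrays, and was lowest on vehicle array 3 and IMQ array 1.

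**Figure D5:**
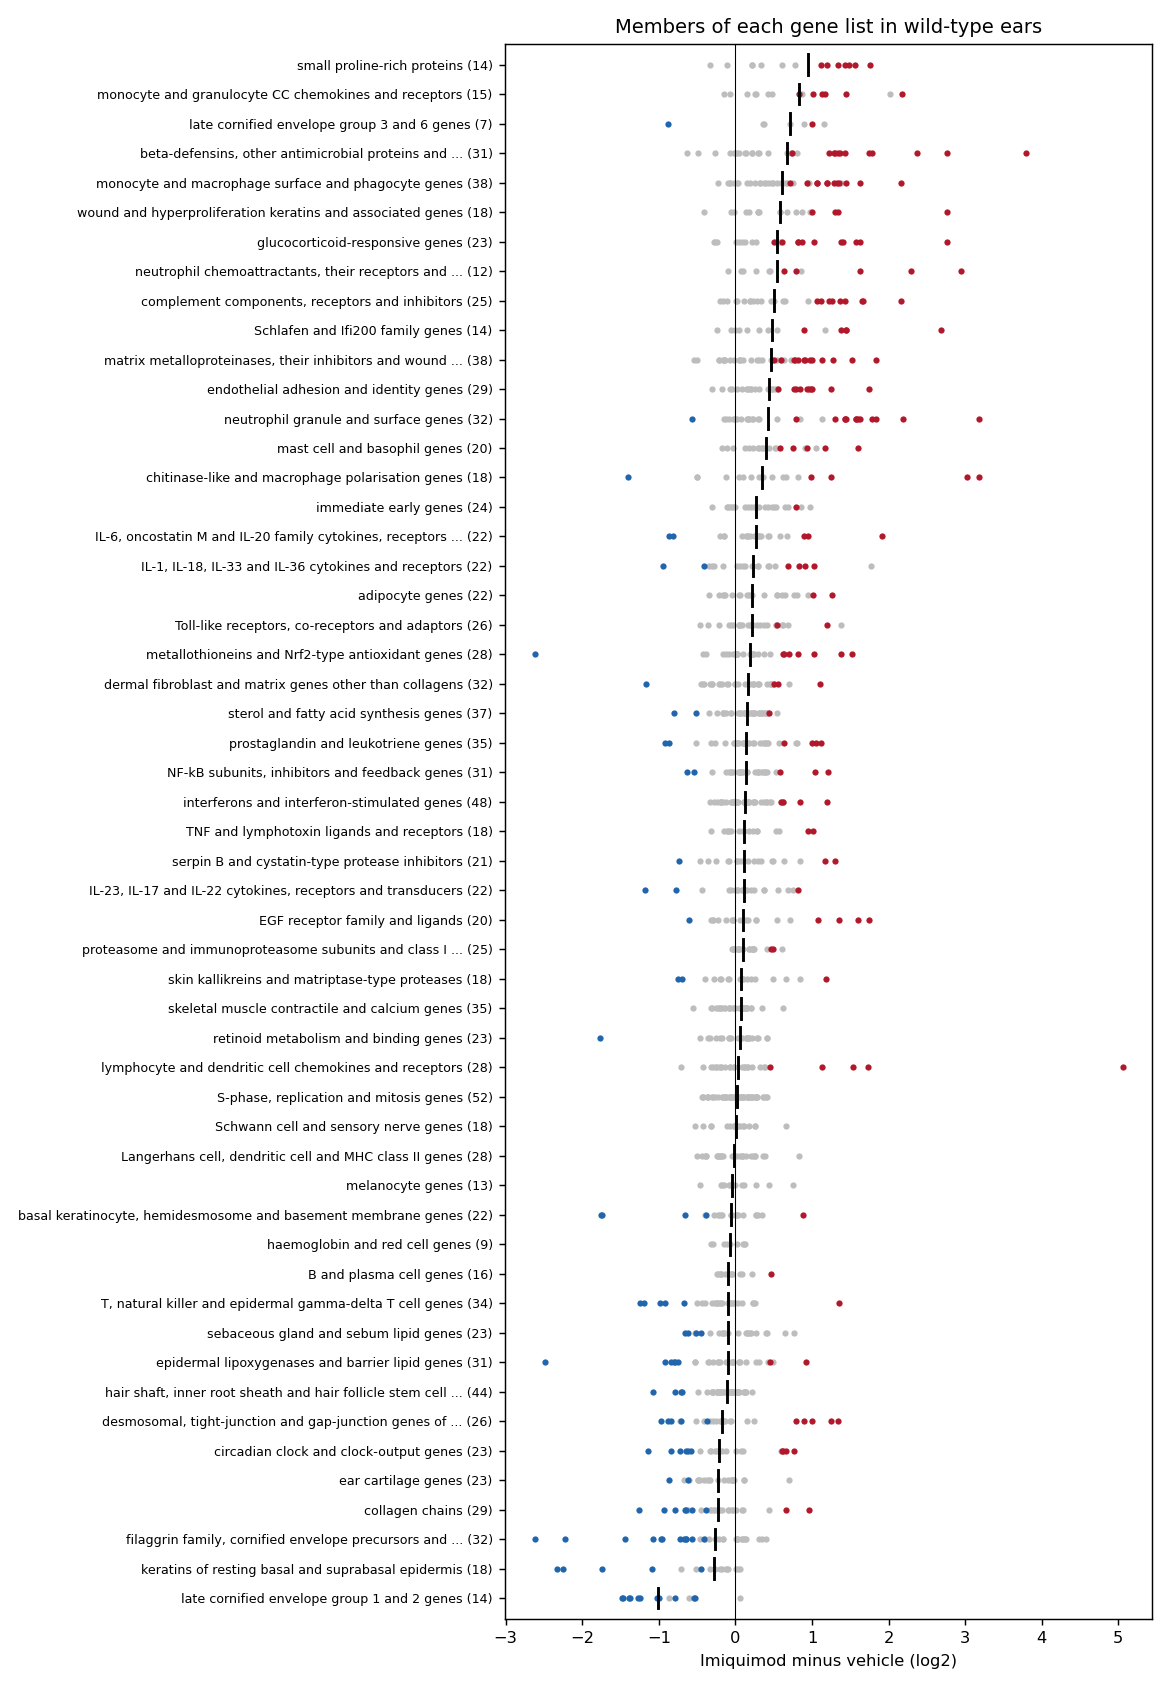
Change with IMQ in wild-type ears (log2, horizontal axis) of each member (points) of the 53 gene lists, with the number of members measured in brackets and a black tick at the median. Red points rose, blue points fell and grey points were not called. Sprr genes have the highest median at 0.95 and Lce1 genes the lowest at -1.01.

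The wild-type response differed in part from that of miR-146a-/- ears under the same cream. The difference between the 2 imiquimod effects, tested in one model, passed the threshold in 387 genes, 1.25% of those tested, and in 77 of the 1126 genes called in wild type. Of these 77 the change was larger in the same direction or deeper in the knockout for 32 rises and 16 falls, and smaller or turned for 21 rises and 8 falls. Of 35 skeletal muscle genes, none of them called in wild type, 15 passed the threshold for the difference, more than in any other list. Their mean level ranged from 6.63 to 7.42 on the wild-type vehicle arrays, and the part of muscle content in the difference was not tested. Defb4 rose by 1.34 in wild type and 4.04 in the knockout (difference 2.70 ± 0.35, adjusted p = 0.0042). Il1f9, not called in wild type at 0.29, changed by 1.39 in the knockout (adjusted p of the difference 0.0111). Alox12e fell by 2.49 in wild type and by 3.93 in the knockout (adjusted p of the difference 0.00685). Some clock and glucocorticoid-responsive genes had changes of opposite sign: Per1 changed by 0.61 in wild type and -0.91 in the knockout (adjusted p of the difference 0.0042), Per2 by 0.62 and -0.57 (0.00572) and Tsc22d3 by 0.82 and -0.56 (0.00458). Zbtb16 rose by 1.58 in wild type and changed by only -0.28 in the knockout (adjusted p of the difference 0.0243). The clock-output genes Dbp and Hlf differed too, but changed in the same direction in both genotypes, Dbp by -1.14 and -2.57 and Hlf by -0.72 and -1.78. For Cxcl13, with changes of 5.06 and 4.05, the difference of -1.02 ± 0.42 did not pass the test (adjusted p = 0.289). The count of 387 depended on single arrays: it was 149, 257 and 172 without wild-type vehicle array 1, 2 or 3 in that order, 173 and 162 without wild-type IMQ array 2 or 4, 238, 824 and 166 without knockout vehicle array 2, 3 or 4, and 199 and 220 without knockout IMQ array 1 or 4.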

How the data were processed

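RNA of whole ear flaps was hybridised to Affymetrix Mouse Gene ST 2.1 arrays. The deposited values are on the log2 scale. The submitters' processing notes name Affymetrix Expression Console as the authors' software, and the way probes were summarised is not stated. The table holds 41345 transcript clusters, of which 32471 have a symbol. Where a symbol had several clusters, the one with the highest mean over all 16 arrays stood for it, which left 30943 genes. Scanner files were not used here, so background and dim probes could not be judged, and precision is limited by the 4 arrays per group. No scan batch was given.

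The 4 group means were fitted over all 16 arrays with limma 3.58.1 (lmFit, eBayes, R 4.3.3) with 12 residual and 6.18 prior degrees of freedom, and p-values were adjusted over all 30943 genes by Benjamini-Hochberg. The code was tested on simulated data. The 53 gene lists and the genes named were chosen with earlier results of these data known. The naming rule took the 12 largest rises and falls among called genes whose groups did not overlap (predicted genes and pseudogenes left out), up to 4 called members of each list, and a set of cytokine, keratin and cell marker genes. Other list members in the text were chosen after their values were seen. Alternatives covered a filter on dim genes, quantile normalization, median centring, trended and robust moderation, array weights, the wild-type arrays alone, the replicate number as a block, the mean of all clusters, and leaving out each array. Fits of every cluster and of the wild-type arrays with the block were added after seeing the data. RefSeq windows (GRCm38.p6) were matched by symbol to 17442 genes. A gene was counted as holding a motif where any of its windows did. Cxcl2 is not analysed here, and some list members are not reported here. Tables were made with pandas 2.3.3 and figures with matplotlib 3.10.9.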

Additional observations from a re-analysis of the deposited data

Results flagged for a closer look

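Among 182 named genes, each group of 4 wild-type arrays was searched for 1 array standing apart from the other 3, a pattern that chance gives in about 1 of 20 groups. It occurred in 22 of 364 groups. Among chemokine and cytokine genes the lone arrays were Ccl7 at 3.95 and Nfkbiz at 6.11 (low on vehicle array 4), Ccl2 at 3.29 and Il1r1 at 6.77 (low on vehicle array 1), Ccl6 at 5.51 (low on IMQ array 4), and Cxcl12 at 7.81, Socs3 at 6.23 and Il22 at 2.09 (high on IMQ array 1). Ifi205 at 7.90 and C3 at 8.96 were low on IMQ array 1, and Stfa2l1 at 6.65 was high on vehicle array 3. In epidermal genes Lor at 10.72 was low on vehicle array 3, Gata3 at 7.42 low on vehicle array 2, Krt10 at 12.22 high on IMQ array 2, Klk5 at 7.47 and Krt79 at 8.27 low on IMQ array 4, and Sprr2b at 9.54, Klk14 at 4.16 and Ivl at 8.75 high on IMQ array 3. Pla2g4b at 6.74 was high on IMQ array 3. Col4a5 stood apart in both groups, at 4.68 on vehicle array 4 and at 3.20 on IMQ array 3.

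For 21 of the 182 genes the IMQ effect differed between the genotypes in the limma model, all with an adjusted p under 0.05. The differences below are the effect in miR-146a-/- ears minus that in wild type, on the log2 scale. Changes were larger upward in the knockout for Defb4 (2.70), Sprr2e (2.55), Sprr2j-ps (1.93), Slc7a11 (1.77), Hbegf (1.72), Gjb2 (1.70), Lce3a (1.55), Il1a (1.44), Il1f6 (1.255), Pla2g4b (1.22) and Il1f9 (1.09). They were larger downward for Flg2 (-1.64), Krt15 (-1.49), Lce1m (-1.48), Alox12e (-1.44), Dbp (-1.44), Chad (-1.11) and Hlf (-1.06). Prss8 (0.72), Fabp4 (-1.29) and Zbtb16 (-1.85) changed in wild type, and in the knockout by -0.03, -0.28 and -0.28.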

How the results depend on the processing

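The count of called genes was 769 to 894 with 1 array left out, 384 to 481 upward and 371 to 420 downward, and 233 to 289 of at least 2-fold. It was 1435 with the filter on dim genes, 1104 after quantile normalization, 1190 after centring, 1335 with trended and robust moderation, 1496 with array weights and 1206 with wild-type arrays alone. No called gene of the main analysis was called with the opposite sign in any of these. After quantile normalization 48.2% of calls were rises (532 of 1104). Of the 156 named genes called, 118 kept their call with each array left out. The genotype difference was less stable: 710 genes with the dim filter, 652 with trended and robust moderation, and 149 to 824 with 1 array left out. Uncalled genes near 0 turned sign: Irak1 to 0.005 and Ifnb1 to 0.0275 after centring, Ifnb1 to 0.0026 after quantile normalization, while with 1 array left out Irak1 ranged from -0.1175 to 0.0458, Traf6 from -0.0983 to 0.0117, Il17a from -0.0683 to 0.2117, Il23a from -0.05 to 0.2167, Ifnb1 from -0.0725 to 0.0475 and Cd3e from -0.3142 to 0.0042. The cause of these shifts was not tested.

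Same-numbered vehicle and IMQ arrays correlated in their deviations with r of 0.0248, 0.0214, -0.0072 and -0.0299. Arrays of different number gave r from -0.0527 to 0.0685. These values gave no sign that the numbers pair the samples, but cannot exclude it, and the labels do not say. With the replicate number as a block 1036 genes were called (569 rises, 467 falls, 269 of at least 2-fold), and 439 for the genotype difference. With the block in wild-type arrays alone 939 were called.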

Other observations

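Of the 1126 called genes 877 were in none of the lists, and the following were chosen after their values were seen. Slc13a3, a dicarboxylate transporter, read 3.49, 3.05, 3.43 and 3.62 with vehicle and 5.04, 5.47, 6.34 and 5.29 with IMQ, a change of 2.14 ± 0.23. The groups did not overlap. Rises followed in Cyp7b1 (2.11), an oxysterol hydroxylase, Apod (1.97), a lipocalin that carries lipids, Tnfaip6 (1.73), a hyaluronan-binding protein, and Lrg1 (1.66), an acute-phase glycoprotein. Cebpd, a C/EBP transcription factor, rose by 1.62, Itgb2, the beta-2 integrin chain that pairs with Itgam, by 1.61, and Cybb, a subunit of the phagocyte NADPH oxidase, 2.83-fold. Among falls were Tmprss11f (-1.58), a membrane serine protease, Tnfrsf19 (-1.52), Hal, which makes urocanic acid from histidine in the epidermis, Wnt3 (-1.45), Serpina12 (-1.38) and Slurp1 (-1.15), a secreted protein of keratinocytes.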
